A study of Mus musculus with 20 samples.

Results

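The insulin-like growth factor (IGF) axis was followed through 9 genes: the ligand Igf1, the receptors Igf1r and Insr, and the binding protein genes Igfbp2, Igfbp3, Igfbp4, Igfbp5, Igfbp6 and Igfbp7. They were taken by gene symbol from the 26440 genes of the deposited expression table, and all 9 were present. Messenger RNA had been profiled with SMART-Seq2, a full-length cDNA protocol, in 20 libraries from C57BL/6N mice. The groups were knockout P3 ventricles (n = 3), wild-type P3 ventricles (n = 3), knockout P3 atria (n = 3), wild-type P3 atria (n = 3), knockout E13.5 whole hearts (n = 4) and wild-type E13.5 whole hearts (n = 4). P counts days after birth and E days of embryonic development. The knockout genotype is given as MyHC-Creld1 KO, a deletion of Creld1 in the myocardium named for a myosin heavy chain driver, so other cells of the heart were not targeted. The series sets knockout against wild-type hearts at both stages, and its groups also allow P3 to be set against E13.5 and ventricles against atria of the same pup.

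IGF1 is a secreted growth factor that binds the receptor tyrosine kinase encoded by Igf1r, and the closely related insulin receptor, encoded by Insr, binds insulin and, in 1 of its splice forms, IGF2. Both receptors signal through receptor substrates, PI3-kinase and AKT, and the pathway is known for promoting cardiomyocyte proliferation before birth and growth in size after it. The binding proteins hold IGFs in the circulation and in the extracellular matrix, prolong their half-life or keep them from the receptors, and are themselves cut by proteases.

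Values are the authors' normalized signal, which is linear and comparable between libraries. The estimated depth ran from 5138353 to 20669361 reads, with 18357 to 23457 genes detected in a library. The targeted gene Creld1 had a signal of 19.9, 59.3 and 51.9 in knockout ventricles, against 62.2, 59.7 and 129.6 in wild-type ventricles. In atria Creld1 had 23.1, 26.6 and 82.4 in knockouts, against 105, 21.6 and 146 in wild-types. At E13.5 it had 70.9, 7.48, 38.4 and 4.64 in knockouts, against 66.0, 92.2, 60.8 and 34.0 in wild-types. The groups overlapped in atria and at E13.5 and were narrowly apart in ventricles, at 59.3 and 59.7, and limma called no difference of Creld1 in any tissue (unadjusted p = 0.0406 at E13.5, adjusted p = 1 in all 3). The library labelled E13.5 knockout replicate 1 stood above wild-type replicate 1. The atrial libraries of replicate 3, 1 knockout and 1 wild-type, stood apart from the rest: they correlated with each other at 0.926 and with the other atrial libraries at 0.770 to 0.836. The atrial library of wild-type pup 2 held the ventricular light chain transcript Myl2 at 9242, against at most 97.2 in the other atria, and its Xist signal of 2876 did not match the 74.9 of the ventricular library labelled as the same pup. Xist was unevenly spread over the genotypes at E13.5, at 38.2, 3003, 33.0 and 35.9 in knockouts, against 2407, 17.8, 2369 and 2670 in wild-types. In atria it was 20.4, 2485 and 1591 in knockouts, against 3596, 2876 and 6119 in wild-types. Genotype and Xist level thus cannot be fully told apart in either. Ventricles had 21.6, 2858 and 2982 in knockouts, against 2791, 74.9 and 2667 in wild-types. Values without single libraries or without the third atrial pair are given below where they differ most. In bulk tissue, fewer cells of a type and less RNA per cell cannot be told apart.

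Differences are given on the log2(signal + 1) scale with their standard error, from limma fitted across 18125 genes, and a gene was called where its Benjamini-Hochberg adjusted p was under 0.05. All 9 IGF axis genes passed the filter of a signal of at least 10 in at least 3 libraries. No member was called between knockout and wild-type in any tissue. In P3 ventricles 0 of 9 members were called, beside 0% of all genes, and 0 had an unadjusted p under 0.05, beside 3.9% of all genes. In P3 atria 0 of 9 were called, beside 0.0276% of all genes, and 3 had an unadjusted p under 0.05, namely Igfbp2, Igfbp3 and Igfbp5, beside 5.32% of all genes. At E13.5 0 of 9 were called, beside 0% of all genes, and 0 had an unadjusted p under 0.05, beside 4.12% of all genes.

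**Figure D1:**
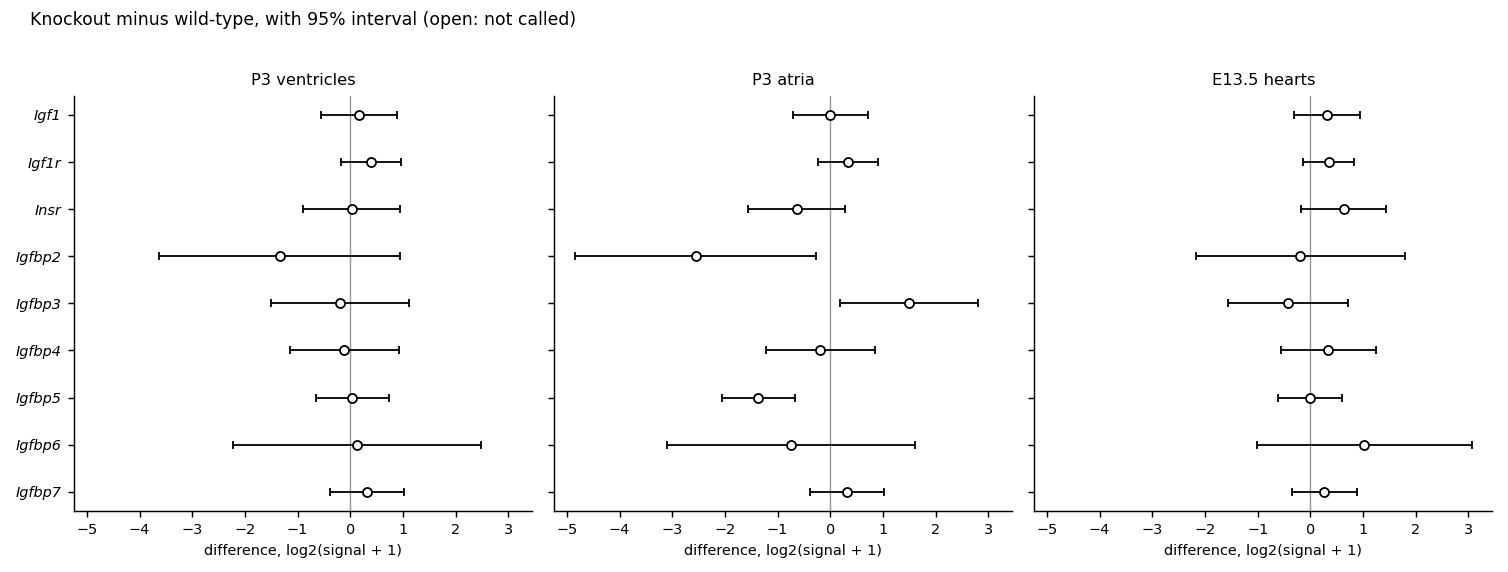
Knockout minus wild-type difference of the 9 IGF axis genes on the log2(signal + 1) scale, with limma's 95% interval, in P3 ventricles (n = 3 each), P3 atria (n = 3 each) and E13.5 hearts (n = 4 each). All points are open because none was called; the atrial intervals of Igfbp2, Igfbp3 and Igfbp5 do not cross 0.

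The groups of knockout and wild-type libraries did not overlap for 0 of 9 members in ventricles (10.5% of all genes), for 2 of 9 in atria (7.91% of all genes) and for 1 of 9 at E13.5 (2.54% of all genes). Those members were Igfbp3 and Igfbp5 in atria and Igfbp4 at E13.5.

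Between stages, Igfbp7 was called higher at P3 in all 4 comparisons, Igfbp5 was called lower in ventricles of both genotypes, and Igfbp6 was called higher in wild-type atria. In knockout ventricles against knockout E13.5 hearts 2 of 9 members were called, beside 2.74% of all genes. In wild-type ventricles against wild-type E13.5 hearts 2 of 9 were called, beside 5.09% of all genes. In knockout atria against knockout E13.5 hearts 1 of 9 was called, beside 2.8% of all genes, and in wild-type atria against wild-type E13.5 hearts 2 of 9 were called, beside 5.5% of all genes. The ventricular and atrial comparisons of a genotype share its E13.5 libraries. The groups of libraries did not overlap for 5 of 9 members in knockout ventricles against E13.5 (16.8% of all genes), 5 of 9 in wild-type ventricles (18.7%), 3 of 9 in knockout atria (14.5%) and 3 of 9 in wild-type atria (14.8%). A whole heart was set against a single chamber there, and 3 of the 4 E13.5 pairs were prepared in 2016 and all P3 libraries in 2018, so stage, dissection and most of the preparation year cannot be told apart.

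**Figure D2:**
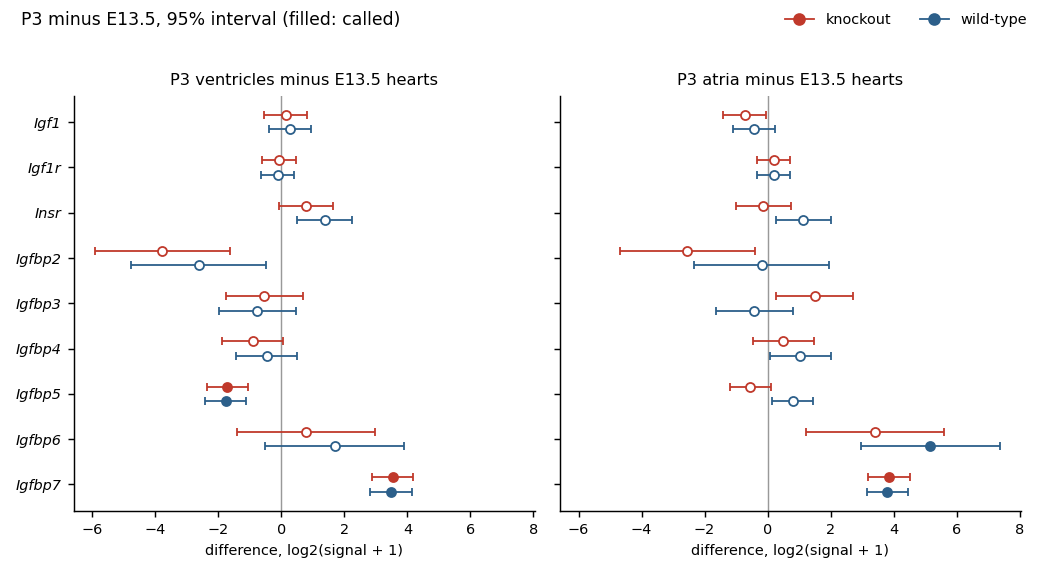
P3 minus E13.5 difference of the 9 genes on the log2(signal + 1) scale with limma's 95% interval, for ventricles (left) and atria (right), knockout in red above wild-type in blue. Filled points passed an adjusted p of 0.05: Igfbp7 to the right of 0 in all 4 comparisons, Igfbp5 to the left in ventricles only, and Igfbp6 to the right in wild-type atria.

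Within pups, no member was called between ventricles and atria. Pups here and below are as labelled. The 2 libraries labelled wild-type pup 2 differed in Xist (2876 in atria, 74.9 in ventricles), so their pairing is doubtful. Among knockout pups 0 of 9 members were called, beside 0.199% of all genes, and among wild-type pups 0 of 9, beside 0.0883% of all genes, while 3 members in each genotype had an unadjusted p under 0.05 by limma, against 9.28% of all genes in knockouts and 9.87% in wild-types. The chambers did not overlap for 3 members in knockouts (Igfbp3, Igfbp4 and Igfbp5, beside 16.9% of all genes) and for 3 in wild-types (Igfbp4, Igfbp5 and Igfbp6, beside 16%). No difference of the knockout effect between tissues or stages was called for any member. The shares of all genes called there were 0% for ventricles against atria, 0% for ventricles against E13.5 and 0.00552% for atria against E13.5. At an unadjusted p under 0.05 these comparisons held 2 (Igfbp3 and Igfbp5), 0 and 3 (Igfbp3, Igfbp5 and Insr) of the 9 members, beside 2.59%, 4.02% and 4.99% of all genes.

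The ligand gene Igf1 lies at chr10:87858265-87937042 on the plus strand of mm10, with 4 exons in its longest transcript. In P3 ventricles its signal was 2432, 1367 and 2805 in knockouts, against 1958, 1619 and 2076 in wild-types. In P3 atria it was 1388, 1128 and 991 in knockouts, against 1402, 1641 and 669 in wild-types. E13.5 hearts had 1428, 3226, 1700.1 and 1728 in knockouts, against 1627, 1729.9, 1298 and 1567 in wild-types. The genotypes overlapped in every tissue, and a single knockout embryo, replicate 2, stood above the other 7. The knockout minus wild-type difference of Igf1 was 0.17 ± 0.35 in ventricles, 0.00 ± 0.35 in atria and 0.31 ± 0.30 at E13.5, each with an adjusted p of 1 by limma. Without that embryo the E13.5 difference was 0.06, and without wild-type atrial replicate 3 the atrial difference was -0.39.

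Igf1 was higher in the ventricles than in the atria labelled as the same pup in 3 of 3 knockout and 2 of 3 wild-type pups. The exception was wild-type pup 2, at -0.02, whose pairing is doubtful. The within-pup difference was 0.86 ± 0.39 in knockouts (adjusted p = 0.556) and 0.70 ± 0.39 in wild-types (adjusted p = 0.5998). These values were 0.54 in knockouts and 0.23 in wild-types without the third atrial pair. With log2 Xist as a covariate the wild-type value was 1.21. Against E13.5 hearts, Igf1 differed by 0.13 ± 0.32 in knockout ventricles, 0.28 ± 0.32 in wild-type ventricles, -0.73 ± 0.32 in knockout atria and -0.42 ± 0.32 in wild-type atria. The smallest of the 4 adjusted p-values was 0.284, in knockout atria, where all 3 P3 libraries lay below all 4 E13.5 libraries. Without wild-type atrial replicate 3 the wild-type atrial value was -0.03.

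**Figure D3:**
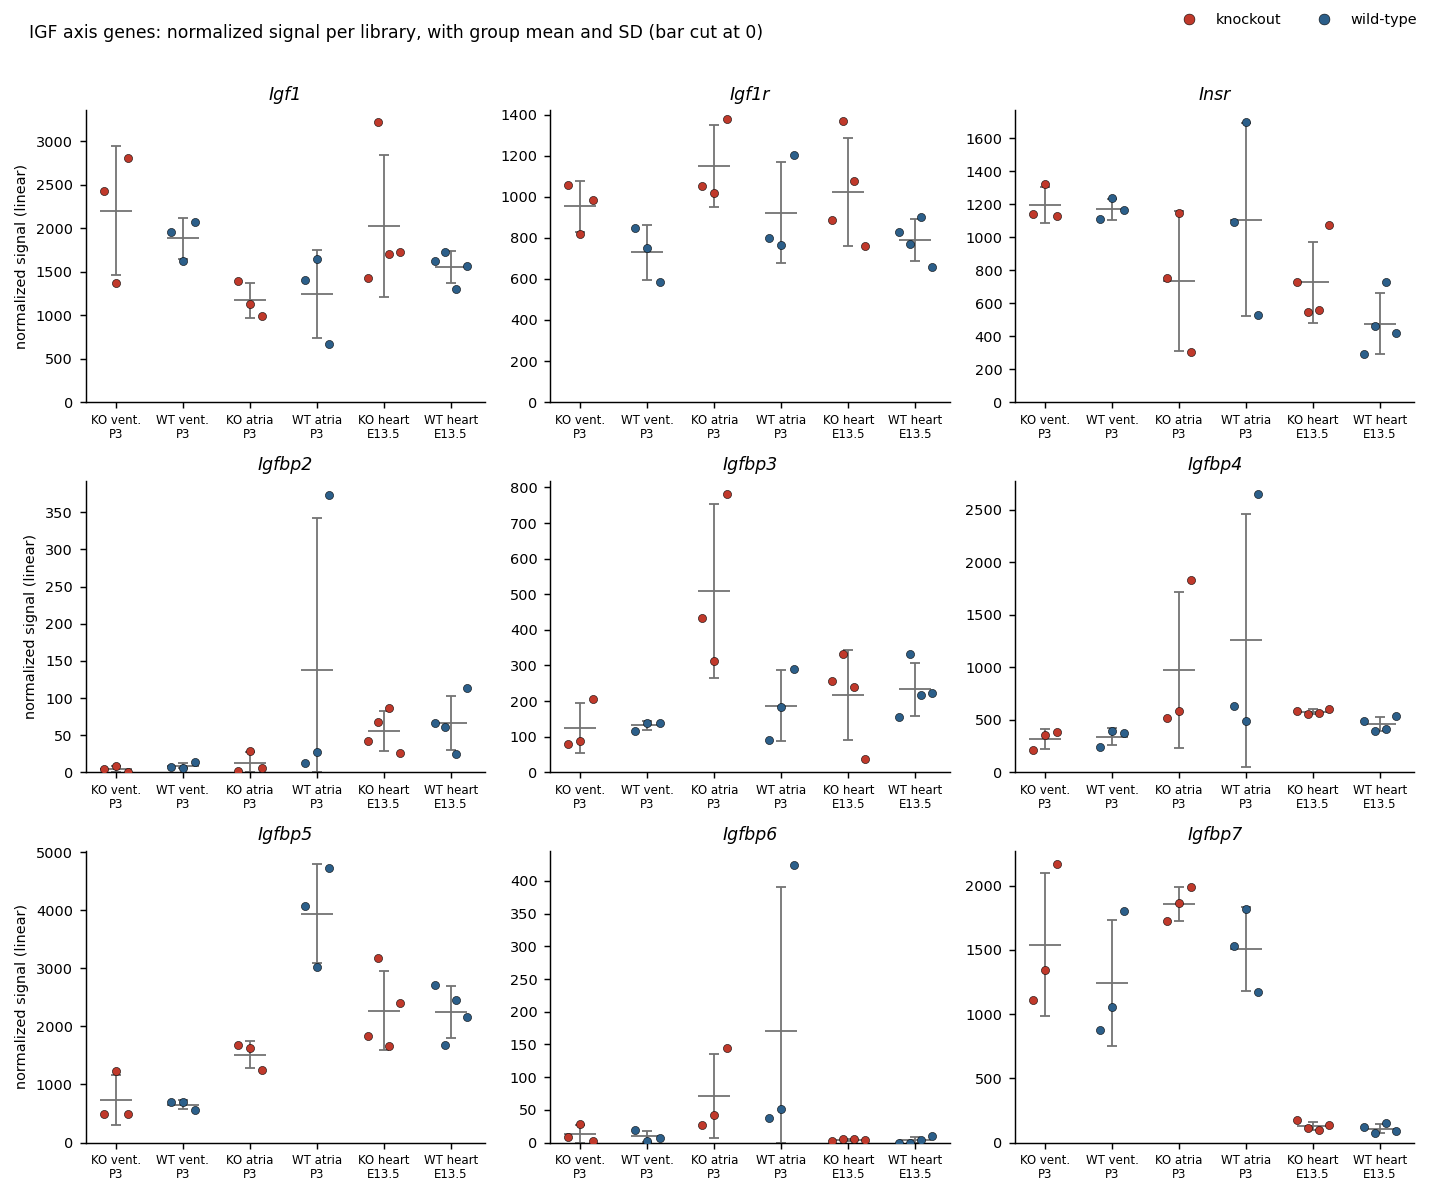
Normalized signal of the 9 genes in each library (points), with the group mean (dash) and SD (bars, cut at 0), for P3 ventricles, P3 atria and E13.5 hearts, knockout in red and wild-type in blue. Igfbp7 is near the bottom of its panel at E13.5 and high at P3, Igfbp5 is highest in wild-type atria, and replicate 3 of the atria carries the highest Igfbp4 and Igfbp6 points.

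Igf1r encodes the receptor for IGF1 and lies at chr7:67952827-68233668 on the plus strand, with 21 exons. In ventricles its signal was 1059.9, 818 and 984 in knockouts, against 850.5, 751 and 587 in wild-types. In atria it was 1053, 1017 and 1382 in knockouts, against 799, 763 and 1205 in wild-types. Embryonic hearts had 889.6, 1368, 1076 and 760.3 in knockouts, against 829.8, 772, 901 and 656 in wild-types. The groups overlapped in all 3 tissues, with the knockout mean above the wild-type mean in each. Knockout less wild-type, the difference was 0.39 ± 0.27 in ventricles, 0.34 ± 0.27 in atria and 0.35 ± 0.23 at E13.5, with 95% intervals of -0.17 to 0.96, -0.23 to 0.90 and -0.14 to 0.83. The unadjusted p-values by limma were 0.159, 0.227 and 0.152, and each adjusted p was 1.

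Igf1r stayed within a narrow range of levels across tissues and stages. Its 4 differences between P3 and E13.5 ran from -0.12 to 0.20, with a standard error of 0.25 each. Its ventricle minus atrium differences were -0.26 ± 0.32 in knockout pups and -0.32 ± 0.32 in wild-type pups, and in wild-type pups it was 0.03 without the third atrial pair.

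Insr encodes the insulin receptor and lies at chr8:3122061-3279617 on the minus strand, also with 21 exons. In ventricles its signal was 1139.8, 1324 and 1128 in knockouts, against 1108, 1235 and 1165 in wild-types. In atria it was 753, 1147 and 302 in knockouts, against 1095, 1699 and 528 in wild-types. E13.5 hearts held 726, 548, 560.1 and 1073 in knockouts, against 293, 462, 731 and 420.2 in wild-types. The P3 ventricles formed a tight range in both genotypes, whereas the atria spread widely, with replicate 3 lowest in each genotype. Between genotypes, knockout less wild-type, Insr differed by 0.03 ± 0.44 in ventricles, -0.64 ± 0.44 in atria and 0.63 ± 0.38 at E13.5, each with an adjusted p of 1 by limma. The atrial value was -0.10 without knockout atrial replicate 3 and -1.09 without wild-type atrial replicate 3.

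All P3 ventricular libraries had more Insr signal than all E13.5 libraries of their genotype. The difference was 0.77 ± 0.41 in knockouts (adjusted p = 0.425) and 1.37 ± 0.41 in wild-types (adjusted p = 0.0611), so neither was called. The wild-type difference was 1.37 and called without the third atrial pair, which enters the shared estimate of the spread (adjusted p = 0.00366). It was also called with any of knockout atrial replicates 2 and 3, wild-type atrial replicates 2 and 3 or wild-type E13.5 replicate 3 left out, at adjusted p-values of 0.0224 to 0.0455. In atria the P3 minus E13.5 difference of Insr was -0.13 ± 0.41 in knockouts and 1.14 ± 0.41 in wild-types (adjusted p = 0.122). The knockout value was 0.41 without knockout atrial replicate 3 and -0.55 without knockout atrial replicate 2. Without the third atrial pair the wild-type difference was 1.59 (adjusted p = 0.00506), and without wild-type atrial replicate 3 alone it was also called (adjusted p = 0.0385).

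Levels of different genes were compared per kilobase of merged exons of the GENCODE M21 annotation. The ratio of Insr to Igf1r signal per kb was 1.31, 1.98 and 1.40 in knockout ventricles and 1.59, 2.01 and 2.42 in wild-type ventricles. At E13.5 the ratio was 0.996, 0.489, 0.636 and 1.72 in knockouts and 0.431, 0.730, 0.991 and 0.782 in wild-types. Insr thus stood above Igf1r per kb in all 6 ventricular libraries, against 1 of the 8 embryonic ones. In atria the ratio was 0.874, 1.38 and 0.267 in knockouts and 1.67, 2.72 and 0.535 in wild-types.

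Igfbp7 and Igfbp5 were the binding protein genes called in more than 1 comparison. Igfbp7 encodes a secreted matrix protein of vessel walls with low affinity for IGFs, and lies at chr5:77349240-77408041 on the minus strand, with 6 exons. Its exons overlap those of Polr2b on the other strand. Whether the authors' counting used strand is not given in the sources used here, so part of its signal is uncertain. Igfbp5 encodes a binding protein that attaches to the extracellular matrix, and lies at chr1:72857932-72874884 on the minus strand, with 4 exons. Because Igfbp7 was called higher and Igfbp5 lower in ventricles against E13.5 hearts, their promoters are shown, as 220 bases from 250 to 31 bases before the start given by RefSeq on GRCm38.p6, 5′ to 3′ on the minus strand, with capitals marking the motif matches described below.
Igfbp7 promoter, chr5:77408076-77408295: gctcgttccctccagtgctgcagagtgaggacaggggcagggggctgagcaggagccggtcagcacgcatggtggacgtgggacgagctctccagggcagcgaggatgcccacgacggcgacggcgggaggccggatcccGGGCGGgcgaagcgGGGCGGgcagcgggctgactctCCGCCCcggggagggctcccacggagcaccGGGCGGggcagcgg
Igfbp5 promoter, chr1:72874896-72875115: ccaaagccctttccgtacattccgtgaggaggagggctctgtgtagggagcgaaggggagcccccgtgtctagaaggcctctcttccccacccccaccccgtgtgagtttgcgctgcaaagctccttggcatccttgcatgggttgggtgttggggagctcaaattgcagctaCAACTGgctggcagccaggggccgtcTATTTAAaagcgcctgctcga

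A total of 4 motifs were searched on both strands, chosen after the windows had been seen. The GC box GGGCGG, bound by SP1-type factors, matched 4 times in the Igfbp7 window and 0 times in the Igfbp5 window, and 28.5% of the 32851 promoter windows of the table hold it. The TATA-like TATTTAA matched once in the Igfbp5 window and 0 times in the Igfbp7 window (3.65% of all windows). The E-box CANNTG also matched once in the Igfbp5 window and 0 times in the Igfbp7 window (62.1% of all windows). TATAAA was in neither (9.95% of all windows). A match is a description of these letters and not of binding. The table held 8 of the 9 members, all but Insr. In the other members GGGCGG matched 3 times in the Igfbp2 window at chr1:72824230-72824449 and 1 time in the Igf1r window. It matched 0 times in the Igfbp2 window at chr1:72825137-72825356 and in those of Igf1, Igfbp3, Igfbp4 and Igfbp6.

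In P3 ventricles the Igfbp7 signal was 1109, 1344 and 2165 in knockouts, against 879, 1053 and 1802 in wild-types. In P3 atria it was 1722, 1863 and 1989 in knockouts, against 1533, 1819 and 1171 in wild-types. The embryonic values were 172, 109, 100.1 and 137 in knockouts, against 122, 76.1, 149.5 and 87.5 in wild-types. Every P3 library lay more than 5 times above every E13.5 library, and the genotypes overlapped within each tissue. Igfbp7 rose by 3.53 ± 0.32 in knockout ventricles against knockout E13.5 hearts (adjusted p = 1.15e-06) and by 3.48 ± 0.32 in wild-type ventricles against wild-type E13.5 hearts (adjusted p = 4.96e-07). In atria it rose by 3.86 ± 0.32 in knockouts (adjusted p = 2.32e-07) and by 3.81 ± 0.32 in wild-types (adjusted p = 3.09e-07), all by limma. The E13.5 libraries prepared in 2018, replicate 4 of each genotype at 137 and 87.5, lay within the range of those prepared in 2016. That describes these libraries only, and the part of preparation year in the difference was not tested.

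The knockout minus wild-type difference of Igfbp7 was 0.32 ± 0.34 in ventricles, 0.32 ± 0.34 in atria and 0.27 ± 0.29 at E13.5, each with an adjusted p of 1. The knockout effect in ventricles less that at E13.5 was 0.05 ± 0.45, with a 95% interval of -0.88 to 0.98. Within pups Igfbp7 was lower in ventricles than in atria in 2 of 3 pups of each genotype and higher in pup 3 of each, and the differences were -0.33 ± 0.37 in knockouts and -0.32 ± 0.37 in wild-types. The wild-type value was -0.79 without the third atrial pair.

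Of 14 fibroblast markers, 3 were called higher in knockout ventricles, 6 in wild-type ventricles, 5 in knockout atria, where 1 was lower, and 9 in wild-type atria, each against E13.5 hearts of the same genotype. In those comparisons, in the same order, 1.79%, 3.35%, 1.95% and 3.11% of all genes were called higher. The shares called lower were 0.954%, 1.74%, 0.855% and 2.39%. These shares also stand beside the counts of the marker lists that follow. Of 12 endothelial and endocardial markers, 0 were called higher and 1 lower in knockout ventricles, 3 higher and 1 lower in wild-type ventricles, 2 higher in knockout atria and 0 either way in wild-type atria. The summed signal of the fibroblast markers was 54987 to 70318 in knockout ventricles, 53234 to 57749 in wild-type ventricles, 65878 to 68963 in knockout atria and 87383 to 91171 in wild-type atria, against 26688 to 40603 in knockout and 23589 to 29025 in wild-type E13.5 hearts. The summed signal of the endothelial and endocardial markers was 3661 to 4536 in knockout ventricles, 4559 to 4893 in wild-type ventricles, 5723 to 7080 in knockout atria and 5204 to 5836 in wild-type atria, against 3164 to 3751 in knockout and 3435 to 3528 in wild-type E13.5 hearts. Of 10 mural and smooth muscle markers, 2 were called higher in knockout ventricles, 2 higher and 1 lower in wild-type ventricles, 2 higher in knockout atria and 1 higher in wild-type atria. They summed to 3342 to 3817 in knockout and 3737 to 4335 in wild-type ventricles. In atria the sum was 2647 to 5537 in knockouts and 1270 to 5455 in wild-types, and at E13.5 1400 to 1986 and 1234 to 1693. No marker of these lists was at 0 throughout a group, and the part of these cells in the Igfbp7 difference was not tested.

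In P3 ventricles the Igfbp5 signal was 494, 1233 and 485 in knockouts, against 694, 702 and 557 in wild-types. In P3 atria it was 1672, 1621 and 1244 in knockouts, against 4065, 3029 and 4728 in wild-types. In E13.5 hearts it was 1843, 3174, 1669 and 2408 in knockouts, against 2719, 1674, 2453 and 2162 in wild-types. All ventricular values lay below all E13.5 values, and the knockout atria lay below the wild-type atria with a gap of more than 1000 between the groups. Igfbp5 fell by 1.72 ± 0.31 in knockout ventricles against knockout E13.5 hearts (adjusted p = 0.00268) and by 1.77 ± 0.31 in wild-type ventricles against wild-type E13.5 hearts (adjusted p = 0.00134). In atria the difference from E13.5 was -0.55 ± 0.31 in knockouts (adjusted p = 0.428) and 0.81 ± 0.31 in wild-types (adjusted p = 0.148), with all wild-type atria above all wild-type E13.5 hearts.

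The atrial knockout minus wild-type difference of Igfbp5 was -1.37 ± 0.33, with a 95% interval of -2.06 to -0.68 and an unadjusted p of 0.000513, which ranked 27th of 18125 genes. It was not called, with an adjusted p of 0.342, and 3 of 3 knockout libraries lay below the wild-types. With replicate number as a block, which pairs littermates, the adjusted p was 0.114, the lowest of all alternatives run, and over the others it ranged from 0.155 to 1. Without the third atrial pair the difference was -1.09. In ventricles the knockout minus wild-type difference was 0.04 ± 0.33, or -0.40 without knockout ventricular replicate 2, and at E13.5 it was -0.01 ± 0.29. The atrial difference less the E13.5 difference was -1.36 ± 0.44 (unadjusted p = 0.00568, adjusted p = 0.901), and the ventricular less the atrial difference within pups was 1.41 ± 0.50 (unadjusted p = 0.0213, adjusted p = 1).

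In the same atria the 14 fibroblast markers summed to 67391, 65878 and 68963 in knockouts, against 91171, 87383 and 89119 in wild-types. Of the 14, 5 had a positive difference, and the median was -0.52. By limma 1 was called, the matrix proteoglycan gene Lum, beside 0.0276% of all genes. Lum was lower in knockouts by -1.82 ± 0.28 (adjusted p = 0.0133). The 11 epicardial markers summed to 1651, 1968 and 2530 in knockout atria, against 2069, 2063 and 3788 in wild-type atria, and those groups overlapped. The part of these cells in the Igfbp5 difference was not tested.

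Within pups, Igfbp5 was lower in ventricles than in atria in 3 of 3 knockout and 3 of 3 wild-type pups. The difference was -1.17 ± 0.36 in knockouts (adjusted p = 0.345) and -2.58 ± 0.36 in wild-types (adjusted p = 0.0608), both short of the threshold. Without both libraries of knockout pup 2 the knockout value was -1.56. Without both libraries labelled wild-type pup 2 the wild-type difference was -2.82 (adjusted p = 0.164).

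**Figure D4:**
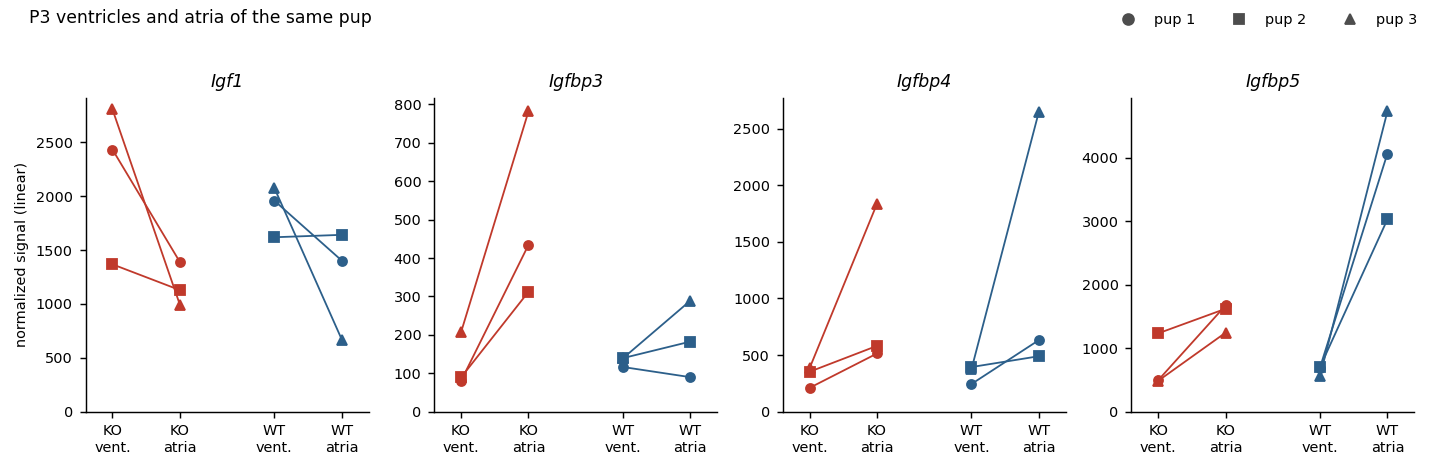
Normalized signal in P3 ventricles and atria, with a line joining the libraries labelled as the same pup, for Igf1, Igfbp3, Igfbp4 and Igfbp5, in 3 knockout pups (red) and 3 wild-type pups (blue). Pups of a number share a litter, not an animal. Igfbp4 and Igfbp5 lines run upward to the atria in all 6 pups, and Igfbp3 lines in all 3 knockout pups and 2 of 3 wild-type pups.

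Igfbp3, the gene of the main IGF carrier in blood, lies at chr11:7206086-7213923 on the minus strand, with 5 exons. In ventricles its signal was 80.05, 89.1 and 207 in knockouts, against 116, 139 and 139 in wild-types. In atria it was 434, 312 and 782 in knockouts, against 89.9, 182 and 289 in wild-types. The E13.5 values were 257, 332, 239 and 37.0 in knockouts, against 156, 333, 218 and 224 in wild-types. All knockout atria lay above all wild-type atria, with 312 the lowest knockout and 289 the highest wild-type value. The atrial difference was 1.49 ± 0.63, with a 95% interval of 0.18 to 2.80, an unadjusted p of 0.0280 and an adjusted p of 0.873 by limma, and it was 1.52 without the third atrial pair.

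The knockout minus wild-type difference of Igfbp3 was -0.20 ± 0.63 in ventricles and -0.43 ± 0.55 at E13.5. The E13.5 value was 0.28 without knockout replicate 4, the library at 37.0. The ventricular less the atrial difference within pups was -1.69 ± 0.56 (unadjusted p = 0.0153, adjusted p = 1). Igfbp3 was lower in ventricles than in atria in 3 of 3 knockout pups, by -2.05 ± 0.40 (adjusted p = 0.118), and in 2 of 3 wild-type pups, by -0.36 ± 0.40 (adjusted p = 0.798). Against E13.5 it differed by 1.502 ± 0.59 in knockout atria (adjusted p = 0.206) and by -0.41 ± 0.59 in wild-type atria (adjusted p = 0.763). In ventricles the stage difference was -0.54 ± 0.59 in knockouts and -0.77 ± 0.59 in wild-types. Without knockout E13.5 replicate 4 the knockout values were 0.79 in atria and -1.26 in ventricles.

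Igfbp4, the gene of an inhibitory binding protein that the protease PAPP-A cuts, lies at chr11:99041244-99054392 on the plus strand, with 4 exons. In ventricles its signal was 210.4, 353 and 384 in knockouts, against 244, 394 and 374 in wild-types. In atria it was 514, 581 and 1837 in knockouts, against 632, 489.9 and 2649 in wild-types. Embryonic hearts gave 582, 555, 564 and 607 in knockouts, against 487, 393, 413 and 541 in wild-types. The knockout embryos lay within a narrow band just above the wild-type embryos, and replicate 3 was more than 2 times as high as the other atrial libraries of its genotype.

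The E13.5 knockout minus wild-type difference of Igfbp4 was 0.34 ± 0.43, with a 95% interval of -0.55 to 1.24. Its standard error comes from the spread shared by all groups, which holds the wide atrial values; the SD on the log2 scale was 0.06 among the 4 knockout and 0.21 among the 4 wild-type embryos. With the E13.5 libraries alone the adjusted p was 0.966. The difference was -0.11 ± 0.50 in ventricles and -0.19 ± 0.50 in atria, where it was -0.78 without knockout replicate 3 and 0.56 without wild-type replicate 3. Igfbp4 was lower in ventricles than in atria in 6 of 6 pups, by -1.42 ± 0.49 in knockouts (adjusted p = 0.422) and by -1.50 ± 0.49 in wild-types (adjusted p = 0.376). Without the third atrial pair these differences were -1.002 in knockouts and -0.84 in wild-types, and without wild-type pup 2 the wild-type value was -2.09. With log2 Xist as a covariate the wild-type value was -2.36.

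Against E13.5, Igfbp4 differed by -0.91 ± 0.47 in knockout ventricles (adjusted p = 0.387) and -0.46 ± 0.47 in wild-type ventricles (adjusted p = 0.695). Without the third atrial pair the knockout difference kept its size and was called (adjusted p = 0.0262). In atria the stage difference was 0.51 ± 0.47 in knockouts and 1.04 ± 0.47 in wild-types (adjusted p = 0.222). Leaving out the third atrial pair gave -0.08 in knockouts and 0.29 in wild-types, and without wild-type atrial replicate 2 the wild-type value was 1.507.

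Igfbp6, the gene of a binding protein that prefers IGF2, lies at chr15:102144362-102149511 on the plus strand, with 4 exons. In ventricles its signal was 8.70, 27.9 and 1.74 in knockouts, against 18.8, 2.97 and 6.53 in wild-types. In atria it was 27.0, 42.9 and 145 in knockouts, against 36.9, 50.9 and 425 in wild-types. At E13.5 it was 2.53, 5.91, 5.18 and 4.28 in knockouts, against 0, 0, 3.40 and 9.57 in wild-types. These embryonic values stand for 0 to 7 estimated reads per library, and the count of 0 in wild-type replicates 1 and 2 allows a signal of up to 2.28 and 5.19 (3 reads each, for counting error only).

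Igfbp6 rose by 5.17 ± 1.06 in wild-type atria against wild-type E13.5 hearts (adjusted p = 0.0056), and all 3 wild-type atria lay above all 4 wild-type embryos. The call held without the third atrial pair, at 4.09 (adjusted p = 0.0331), and was lost when those 2 groups were fitted alone (adjusted p = 0.0764). Because the embryonic values stand for so few reads, the size depends on the pseudocount and was 6.93 with 0.1 and 3.08 with 10. In knockout atria the difference was 3.41 ± 1.06 (adjusted p = 0.0915). In ventricles it was 0.79 ± 1.06 in knockouts and 1.69 ± 1.06 in wild-types, where it was 3.25 with a pseudocount of 0.1 and 0.53 with 10. Within pups Igfbp6 was lower in ventricles than in atria in 6 of 6 pups, by -2.62 ± 1.22 in knockouts (adjusted p = 0.567) and -3.49 ± 1.22 in wild-types (adjusted p = 0.407). Leaving out the third atrial pair gave -1.06 in knockouts and -2.32 in wild-types. The knockout minus wild-type difference was 0.13 ± 1.13 in ventricles, -0.74 ± 1.13 in atria and 1.02 ± 0.98 at E13.5. The atrial value was 0.35 without wild-type replicate 3, and the E13.5 value was 2.52 with a pseudocount of 0.1 and 0.18 with 10.

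Igfbp2, the gene of a binding protein abundant in fetal serum, lies at chr1:72824503-72852474 on the plus strand, with 4 exons. It is the neighbour of Igfbp5, and the 2 genes run toward each other with 5457 bases between their ends. In ventricles its signal was 4.90, 8.00 and 0 in knockouts, against 7.63, 6.03 and 13.2 in wild-types. In atria it was 2.28, 29.3 and 5.82 in knockouts, against 12.2, 26.9 and 374 in wild-types. At E13.5 it was 42.3, 67.9, 86.6 and 26.0 in knockouts, against 66.3, 61.4, 24.1 and 114 in wild-types. The gene was low in all ventricular libraries, and the wild-type atrial library of replicate 3 stood more than 10 times above the others of its group. The 0 in knockout ventricular replicate 3 allows a signal of up to 2.61.

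All ventricular Igfbp2 values lay below all E13.5 values of their genotype. The difference was -3.78 ± 1.03 in knockouts (adjusted p = 0.0512) and -2.63 ± 1.03 in wild-types (adjusted p = 0.166), so neither was called. The knockout value was -4.99 with a pseudocount of 0.1 and -2.14 with 10. The knockout difference was called without the third atrial pair (adjusted p = 0.0117) and, at -4.41, without both libraries of knockout pup 2 (adjusted p = 0.0438). Leaving out any of knockout atrial replicates 1, 2 and 3 or wild-type atrial replicates 1 and 3 also gave a call, at adjusted p-values of 0.0152 to 0.0497. In atria the stage difference was -2.55 ± 1.03 in knockouts (adjusted p = 0.224) and -0.19 ± 1.03 in wild-types (adjusted p = 0.945), the wild-type value being -1.62 without wild-type atrial replicate 3. The knockout minus wild-type difference was -1.34 ± 1.10 in ventricles, -2.56 ± 1.10 in atria (unadjusted p = 0.0302, adjusted p = 0.873) and -0.19 ± 0.95 at E13.5. The atrial value was -0.95 without the third atrial pair. The 11 epicardial markers summed to 943 to 1393 in knockout and 705 to 937 in wild-type ventricles, against 1755 to 2058 in knockout and 1453 to 1787 in wild-type E13.5 hearts, and the part of these cells in the Igfbp2 difference was not tested.

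The make-up of the binding protein transcripts differed between the stages. The shares rest on an Igfbp7 signal that is uncertain in part, because its exons overlap those of Polr2b. Igfbp7 made up 84.7%, 76.4% and 88.4% of the summed Igfbp2 to Igfbp7 signal per kb in knockout ventricles, and 76.0%, 77.2% and 86.4% in wild-type ventricles. In atria its share was 71.8%, 73.5% and 62.0% in knockouts, and 58.8%, 67.2% and 31.9% in wild-types. At E13.5 it was 20.7%, 10.1%, 13.4% and 16.6% in knockouts, and 13.503%, 11.04%, 17.4% and 10.4% in wild-types. Igfbp7 was the largest of the 6 per kb in all P3 libraries. At E13.5 Igfbp5 took that place, with 44.6% to 59.2% of the sum in knockouts and 48.9% to 60.4% in wild-types.

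**Figure D5:**
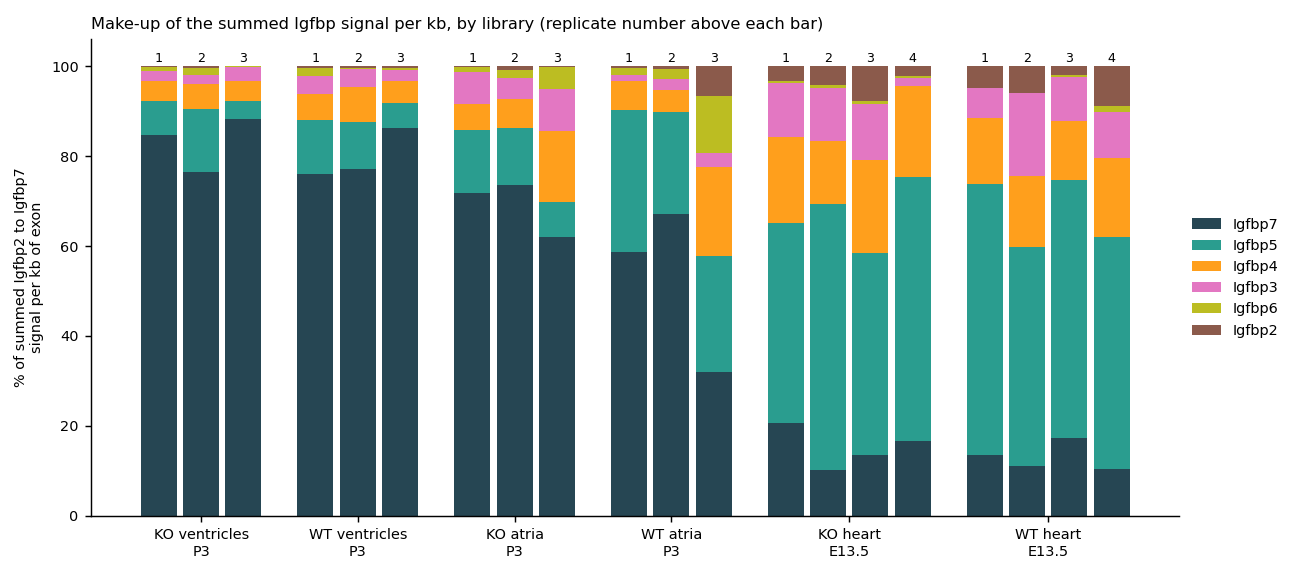
Share of each Igfbp gene in the summed Igfbp2 to Igfbp7 signal per kb of exon, for each library (bars, replicate number above), in percent. Igfbp7 fills most of the bar in P3 ventricles and Igfbp5 about as much as all others together at E13.5; among atria, wild-type bars hold more Igfbp5 than knockout bars, and replicate 3 holds more Igfbp4 and Igfbp6.

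In atria Igfbp5 made up 14.04%, 12.9% and 7.81% of the sum in knockouts, against 31.4%, 22.5% and 26.0% in wild-types, without overlap. The ratio of Igfbp7 to Igfbp5 per kb there was 5.12, 5.71 and 7.94 in knockouts, against 1.87, 2.98 and 1.23 in wild-types. The summed binding protein signal per kb was 1083, 1455 and 2026 in knockout ventricles and 956, 1128 and 1725 in wild-type ventricles. In atria the sum was 1983, 2096 and 2652 in knockouts and 2157, 2238 and 3032 in wild-types, and at E13.5 it was 616 to 893 in knockouts and 570.3 to 750.1 in wild-types. All P3 libraries thus lay above all embryonic ones, and replicate 3 was the highest library of each P3 group. Relative to Igf1 per kb, the sum was 14.1, 18.4 and 26.5 times as high in knockout atria and 15.2, 13.51 and 44.9 times in wild-type atria. In ventricles the ratio was 4.41, 10.5 and 7.16 in knockouts and 4.83, 6.90 and 8.23 in wild-types, and at E13.5 it was 2.74 to 4.78 in knockouts and 3.27 to 5.43 in wild-types.

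With the 6 groups ranked by mean log2 level, most neighbours overlapped in their ranges. Igf1, Igf1r, Insr, Igfbp3 and Igfbp6 had no neighbouring groups with separate ranges. For the others, differences of mean log2 level are given between neighbours with separate ranges, not the space between the ranges. For Igfbp7 the means differed by 3.22 between wild-type ventricles and knockout E13.5 hearts. Igfbp5 means differed by 0.81 between wild-type atria, its highest group, and wild-type E13.5 hearts. They differed by 1.17 between knockout atria and knockout ventricles, whose ranges nearly touched (lowest atrial signal 1244, highest ventricular 1233). Igfbp2 means differed by 2.44 between knockout E13.5 hearts and wild-type ventricles. Igfbp4 means differed by 0.34 between knockout and wild-type E13.5 hearts, with a lowest knockout signal of 555 and a highest wild-type signal of 541.

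Over the 20 libraries, which share stage, tissue and preparation, the transcripts most like a member in log2 level were found by Pearson correlation and are given as a description. Igfbp7 was followed most closely by Ehd4 (0.96), Itih5 (0.96) and the dermatopontin gene Dpt (0.95), which is also on the fibroblast list. Igfbp5 was followed by Rspo1 (0.89), Fras1 (0.86) and Panx2 (0.86). Igfbp4 was followed by Maged2 (0.91), Sort1 (0.90) and the FGF receptor gene Fgfr1 (0.89), and Igfbp6 by Tnxb (0.90), F11r (0.89) and Tapbp (0.89). Igfbp2 was followed by Chst11 (0.83), the epicardial transcription factor gene Wt1 (0.80) and Fst (0.76), and Igfbp3 by Selenos (0.81), Slc12a8 (0.79) and Spock3 (0.76). For Igf1 these were Slitrk4 (0.85), Zfp991 (0.84) and Mars2 (0.82), for Igf1r Hexim2 (0.78), Rnps1 (0.78) and Phc2 (0.77), and for Insr Hccs (0.87), Mreg (0.87) and Heca (0.86). Among the members themselves, the neighbours Igfbp2 and Igfbp5 correlated at 0.70 over the 20 libraries, and Igf1 and Igfbp4 at -0.71.

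Of 102 other genes of the pathway present in the table, 97 passed the filter. Between knockout and wild-type, limma called 0 of the 97 in each tissue, and 5 in ventricles, 9 in atria and 7 at E13.5 had an unadjusted p under 0.05, beside 3.9%, 5.32% and 4.12% of all genes. The FOXO target Klf15, a transcription factor gene, averaged 18.2 ± 6.04 in knockout and 2.01 ± 1.997 in wild-type E13.5 hearts (SD, n = 4 each), a difference of 2.90 ± 0.56 with an adjusted p of 0.185, at wild-type levels of a few reads. Ctgf, a matricellular gene with a domain like that of the binding proteins, averaged 2395 ± 1480 in knockout and 671 ± 314 in wild-type ventricles (SD, n = 3 each). The difference of Ctgf was 1.81 ± 0.48, with an adjusted p of 0.670 by limma. Grb14, an adaptor that restrains insulin receptor signalling, averaged 469 ± 115 in knockout and 967 ± 358 in wild-type atria, a difference of -1.001 ± 0.33 with an adjusted p of 0.639.

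In the remaining lists the smallest unadjusted p-values between genotypes belonged to the protease inhibitor gene Timp1 (0.0110, E13.5, -1.77 ± 0.63), the PI3-kinase subunit gene Pik3r3 (0.0265, atria, 1.21 ± 0.51), Igf2bp2 (0.0636, ventricles, 0.88 ± 0.45), the glucocorticoid receptor gene Nr3c1 (0.0868, E13.5, 0.47 ± 0.26) and Igf2 (0.167, ventricles, 0.42 ± 0.29).

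Between stages the same lists held more called genes. In knockout ventricles 8 of the 97 rose and 1 fell against E13.5, beside 1.79% and 0.954% of all genes. In wild-type ventricles 9 rose and 3 fell, beside 3.35% and 1.74%. In knockout atria 11 rose and 3 fell, beside 1.95% and 0.855%, and in wild-type atria 13 rose and 3 fell, beside 3.11% and 2.39%.

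Among ligands and receptors, 2 were tested, Igf2 and its clearance receptor Igf2r. Igf2, the fetal IGF, averaged 1512 ± 105.6 in knockout ventricles against 4355 ± 496 in knockout E13.5 hearts, and fell by 1.52 ± 0.27 (adjusted p = 0.0025). In wild-type ventricles it averaged 1148 ± 244 against 4266 ± 218 in wild-type E13.5 hearts, and fell by 1.91 ± 0.27 (adjusted p = 0.00015). It was not called in atria, where it averaged 3852 ± 1128 in knockouts and 3466 ± 1703 in wild-types. Of the 3 IGF2 mRNA-binding protein genes, Igf2bp2 fell in wild-type ventricles by 1.90 ± 0.42, in knockout atria by 1.76 ± 0.42 and in wild-type atria by 2.01 ± 0.42, and Igf2bp3 fell in wild-type atria by 1.55 ± 0.35.

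Of the list of other IGF-binding and carrier genes, 12 were tested, and the called genes were higher at P3. They were 4 in knockout ventricles, 2 in wild-type ventricles, 6 in knockout atria and 5 in wild-type atria. In the same order, 1.79%, 3.35%, 1.95% and 3.11% of all genes were called higher. That list also holds matricellular and protease genes, and no called gene was an Igfbp gene or the carrier gene Igfals. Nov, a matricellular gene, rose in each of the 4, by 4.30 ± 0.63 and 3.12 ± 0.63 in knockout and wild-type ventricles and by 5.37 ± 0.63 and 3.86 ± 0.63 in knockout and wild-type atria. Ctgf rose by 3.00 ± 0.45 in knockout ventricles and by 2.97 ± 0.45 in knockout atria. Wisp1, of the same family, rose by 1.84 ± 0.25 in wild-type atria, and was the only one of the 97 called between wild-type ventricles and atria, at 438 ± 26.4 in ventricles and 2190 ± 497 in atria (-2.30 ± 0.30, adjusted p = 0.0438). The serine protease gene Htra3 rose by 3.70 ± 0.84 in wild-type ventricles and by 4.67 ± 0.84 in wild-type atria. Kazald1 and Wisp2 also rose in both knockout comparisons, from embryonic levels of a few reads at most, so only their levels are given. Kazald1 averaged 53.8 ± 33.4 in knockout ventricles and 148 ± 157 in knockout atria, against 0.838 ± 0.721 in knockout E13.5 hearts. Wisp2 averaged 33.9 ± 34.2 in knockout ventricles and 333 ± 323 in knockout atria, against 1.08 ± 2.16 in knockout E13.5 hearts. Wisp2 was also called higher in wild-type atria, at 40.5 ± 8.09, and was listed at 0 in all 4 wild-type E13.5 libraries. The remaining calls of the list were Cyr61, higher in atria of both genotypes, and Wisp1, higher in knockout atria too. By limma, 0 of the 97 pathway genes were called for a difference between the genotypes in the stage difference. At an unadjusted p under 0.05 there were 6 in ventricles and 7 in atria, beside 4.02% and 4.99% of all genes.

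Among 20 substrates, adaptors and brakes of the receptors, Socs2, a suppressor of growth hormone signalling, rose in all 4 comparisons, by 1.80 ± 0.33 and 1.78 ± 0.33 in knockout and wild-type ventricles and by 1.46 ± 0.33 and 2.03 ± 0.33 in knockout and wild-type atria. Grb14 rose in 3 of the 4, by 1.42 ± 0.31 in knockout ventricles, 1.52 ± 0.31 in wild-type ventricles and 1.37 ± 0.31 in wild-type atria. Grb10, an imprinted adaptor that restrains growth, fell by 1.10 ± 0.20 in wild-type ventricles, by 1.64 ± 0.20 in knockout atria and by 1.75 ± 0.20 in wild-type atria. Gab1, a docking protein gene, fell by 1.03 ± 0.27 in knockout atria, and the phosphatase gene Inppl1 rose by 1.55 ± 0.42 in wild-type atria. Among 9 regulators of growth hormone and IGF1 action, Cish, a target of growth hormone and STAT5 signalling, rose in all 4 comparisons, by 4.32 to 4.47. Nr3c1 rose by 1.43 ± 0.28 in wild-type ventricles and by 1.12 ± 0.28 in wild-type atria. Thrb, a thyroid hormone receptor gene, was called higher in knockout atria, at 60.3 ± 4.01 against 1.46 ± 1.58 in knockout E13.5 hearts.

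Of 15 FOXO factors and targets, Pdk4, a kinase that restrains pyruvate oxidation, rose in all 4 comparisons, by 3.81 ± 0.37 and 3.93 ± 0.37 in knockout and wild-type ventricles and by 2.04 ± 0.37 and 2.05 ± 0.37 in knockout and wild-type atria. Klf15 was called higher in wild-type ventricles, at 55.8 ± 10.4, and in wild-type atria, at 59.0 ± 15.0, against 2.01 ± 1.997 in wild-type E13.5 hearts. Txnip rose by 1.82 ± 0.42 in wild-type ventricles and the ubiquitin ligase gene Trim63 by 1.37 ± 0.36 in wild-type atria. Of 12 binding protein proteases and inhibitors, 1 was called, Timp2, which rose by 1.64 ± 0.32 in knockout atria. Of the 24 genes of the PI3-kinase, AKT and mTOR core, 0 were called in any of the 4 comparisons.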

How the data were processed

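Bulk RNA of 20 mouse heart libraries from 14 animals was analysed. Per the labels' protocols, RNA was isolated with RNeasy Micro columns and amplified with SMART-Seq2. The authors deposited 1 table of normalized signal per gene and library; per the submitters' processing notes, the tools were STAR 2.5.1, bcl2fastq 2.2 and DESeq2 and the build mm10, with no role or order stated. No source used here gives the counting tool, annotation release or strand use. The most frequent signal above 0 in a library was taken as the worth of 1 estimated read. Among processed pseudogenes, TEC (to be experimentally tested) genes, snoRNAs and miRNAs, 99.7% to 99.8% of values per library were whole multiples of it, but over all genes 45.1% to 64.6% were (tolerance 0.001 reads, values up to 100 reads), so no count test was run and depths are estimates. Reads were not tied to molecules by identifiers, so floors cover counting error only.

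Signals were tested as log2(signal + 1) with limma 3.58.1 (R 4.3.3, mean trend) over 18125 genes, kept at a signal of at least 10 in at least 3 libraries, with Benjamini-Hochberg adjustment over all of them. One fit held the 6 groups, and ventricles and atria were compared with the labelled pup as a block. The fit was first tested on simulated data. Replicate numbers pair the samples, because the labels give a shared litter and preparation date; E13.5 replicates 2 and 3 share a litter. Deviations of same-numbered libraries correlated at 0.212 to 0.638 in atria, 0.0200 to 0.0658 in ventricles and -0.0159 to 0.0159 at E13.5. Different-numbered libraries correlated at -0.411 to 0.225 in atria, -0.0617 to 0.0280 in ventricles and -0.0310 to 0.0248 at E13.5. These ranges overlap, and the 0.638 belongs to the third atrial pair. Gene lengths and positions are from GENCODE M21 and promoters from RefSeq. The members are named in full, and other pathway genes by rule: up to 4 called genes per list and comparison, those of smallest p first, and otherwise the smallest p of each list between genotypes. The members and lists were chosen with earlier results of these data known. The alternatives changed the pseudocount, filter, scaling, weights, block, samples in the fit and libraries left out, or added log2 Xist as a covariate.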

Additional observations from a re-analysis of the deposited data

Results flagged for a closer look

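Igf1 in knockout E13.5 hearts was 3226 in replicate 2, far from the 1428, 1700.1 and 1728 of the other 3 libraries. The gap to the nearest library was 0.833 of the group's range in linear signal, just past Dixon's 95% critical value for 4 samples. On the log2 scale used for the tests that share is smaller and does not pass, so the flag depends on the scale. Of 18 member and group combinations of 4 libraries examined, this was the 1 that passed, and chance alone marks about 1 in 20. The cause was not tested.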

How the results depend on the processing

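The members called in each comparison were recounted under 34 or 35 alternatives. With array weights the count was 4 in wild-type ventricles against E13.5 (Insr and Igfbp2 added), 2 in knockout atria against E13.5 (Igfbp2 added) and 1 in knockout ventricles against atria (Igfbp3, adjusted p = 0.031). Fitting only the groups compared left 1 in wild-type atria against E13.5, Igfbp7. Without the third atrial pair, chosen after the data were seen, 4 were called in knockout ventricles against E13.5 (Igfbp2 and Igfbp4 added). Wild-type ventricles against atria had 1 call, Igfbp5, under a pseudocount of 10, a filter of 50, quantile normalization, array weights, no replicate block and 2016 preparations only at E13.5, and 0 to 1 with each replicate left out, the 1 without knockout E13.5 replicate 1 (adjusted p = 0.0468). With the replicate block, 0 members were called between genotypes in each tissue, so the block changed no call there. Igfbp5 and Igfbp7 were called in ventricles against E13.5 in all 34 alternatives for each genotype, as was Igfbp7 in atria. No called value was reversed, while 36 of 108 member differences changed sign in some alternative without being called. Insr in wild-type atria against E13.5 gained a call with array weights, and Igfbp5 there with quantile normalization (adjusted p = 0.04997). The cause of these changes was not tested. With 3 or 4 animals a group, differences of the size of Igf1r between genotypes could not be told from 0.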
